A study of Mus musculus with 3 samples.

Results

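The 38 genes of the Hoxa, Hoxb, Hoxc and Hoxd clusters described here are those that the array files name in these 4 clusters, out of 30397 named genes. They were chosen by name, with earlier results of these data known. They were compared by cluster and by paralog number, the number that places a Hox gene along its cluster and matches it to its counterparts in the other clusters. The tested cells were embryoid bodies labelled Dido3deltaCT+HADido3CT, called mutant+CT below. They make a truncated Dido3 protein without its C-terminal region and overexpress that missing CT region, encoded by exon 16. Their reference was wild-type embryoid bodies, and both were grown in suspension for 10 days without LIF, the cytokine that holds mouse embryonic stem cells undifferentiated. There were 3 biological replicates of either kind, per the labels, and 3 two-colour Agilent arrays, each with 1 mutant+CT and 1 wild-type RNA. Mutant+CT was in Cy3 on replicates 1 and 3 and in Cy5 on replicate 2. No sample carried the truncation alone or the CT construct alone, so their effects cannot be told apart. The promoter of the construct and the number of cell clones behind a group are not given in the sources used here.

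Hox proteins are transcription factors that bind DNA through a homeodomain and give cells their position along the head-to-tail axis. Within a cluster, genes of low paralog number are activated earlier and nearer the head, and genes of high number later and nearer the tail, an order known as collinearity. Retinoic acid and the caudal (Cdx) factors open the clusters, Polycomb proteins keep them silent, and TALE proteins (Pbx, Meis and Pknox) are the partners with which Hox proteins bind DNA. Mouse embryoid bodies form mesoderm, endoderm and neural cells without an imposed axis.

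The array held 42 probes for these genes, each of 60 bases: 1 probe for 34 genes and 2 probes for each of Hoxa9, Hoxa13, Hoxb3 and Hoxd11. Because the homeobox is alike in all Hox genes, the probe sequences were compared with each other. The longest run of bases shared by probes of different members was 11 of 60, and the median over probes was 9. The probes were not compared with the transcripts of other Hox genes. Binding of a probe to another member's transcript was therefore not tested. Of the 42 probes, 2 contained the motif TGGTTNCANAANNG on the transcript's strand, which codes for part of the conserved DNA-recognition helix of the homeodomain. It was found in 0.0279% of all non-control probes of the array (11 probes). These 2, of Hoxb3 and Hoxc11, lie in the part of the genes most alike between paralogs. The Hoxc11 probe, at chr15:102787022-102787081 (mm9, as the files give it, plus strand), is shown as an example, 5′ to 3′ with the motif in capitals.
Hoxc11 homeobox probe: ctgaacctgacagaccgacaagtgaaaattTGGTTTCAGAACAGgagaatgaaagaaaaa
Both are dim. The Hoxb3 homeobox probe was well above background in 1 mutant+CT RNA and 2 wild-type RNAs, and Hoxb3 was therefore read from its other probe. The Hoxc11 probe was well above background in none of the 6 RNAs. The longest run shared with a probe of another member is 8 bases for the Hoxb3 homeobox probe and 11 for the Hoxc11 probe. The place of the other probes within their transcripts was not analysed here.

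A gene was counted as measured when a probe was well above background, by the scanner software's own flag, on all 3 arrays in mutant+CT or on all 3 in wild type. By this rule 27 of the 38 Hox genes were measured. They were 9 of 10 in Hoxa (chromosome 6), 6 of 10 in Hoxb (chromosome 11), 6 of 9 in Hoxc (chromosome 15) and 6 of 9 in Hoxd (chromosome 2). By paralog number they were 8 of 11 for numbers 1 to 4, 6 of 11 for 5 to 8 and 13 of 16 for 9 to 13. With a flag in a single RNA as the measure, the mutant+CT RNAs of replicates 1 to 3 showed 33, 31 and 30 of the 38 genes above background, and the wild-type RNAs showed 31, 30 and 34. The number of Hox genes above background therefore overlapped between the groups. Of the 11 genes not measured, Hoxc11 and Hoxd12 were above background in no RNA. Hoxa5, Hoxb1, Hoxb5, Hoxb8, Hoxb13, Hoxc5, Hoxc8, Hoxd1 and Hoxd3 were above it in some RNAs of each group. Just inside the rule were Hoxa6 and Hoxc12, above background on 2 of 3 arrays in mutant+CT and 3 in wild type, and Hoxd11 and Hoxd13, on 3 arrays in mutant+CT and 2 in wild type. Just outside were Hoxb5, Hoxb8, Hoxb13 and Hoxd1, each above background on 2 arrays in either group.

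Across the whole array, 20389 genes were measured, and between 67.3% and 77.8% of the probes of an RNA were well above background. No Hox spot was saturated. In limma with Benjamini-Hochberg adjustment over those genes, 0 genes (percent called 0) had an adjusted p under 0.05, and 298 genes (1.46%) had one under 0.1. At an unadjusted p under 0.05, 9.04% of genes were higher in mutant+CT and 6.7% lower. The 4 probes of Dido1, the gene that encodes Dido3, disagreed: their log2 ratios (mutant+CT over wild type) on replicates 1 to 3 were -3.85, -1.40 and -1.93, then -0.01, 1.58 and 0.74, then 1.53, 2.16 and 1.69, then 3.42, 3.53 and 3.66. Where each probe lies relative to the truncation was not analysed here, so they do not check the labels. In a mixed tissue such as an embryoid body, fewer cells of a type and less RNA per cell cannot be told apart.

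No Hox gene passed the adjusted threshold of 0.05 or of 0.1. At an unadjusted p under 0.05, Hoxb9 was higher and Hoxa2 lower, 1 of 27 measured Hox genes (3.7%) in each direction, which is below the 9.04% and 6.7% of all genes. Over all 39428 probes fitted, dim ones included, 0 of the 42 Hox probes passed (0 of all probes), and the lowest adjusted p among them was 0.245, for Hoxb9. For many Hox genes the sign of the ratio differed between the arrays. Unless a unit is given, a ratio is the log2 of the mutant+CT signal over the wild-type signal on 1 array. Over the 27 genes the median ratio was 0.73 on replicate 1, -0.31 on replicate 2 and -0.27 on replicate 3, while the median over all genes was 0.01, 0.01 and 0.02. On replicate 1, 23 of 27 Hox genes were higher in mutant+CT, against 7 on replicate 2 and 10 on replicate 3. The median of the genes' mean ratios was 0.04, with an SD of 0.59 between the medians of the 3 arrays.

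**Figure D1:**
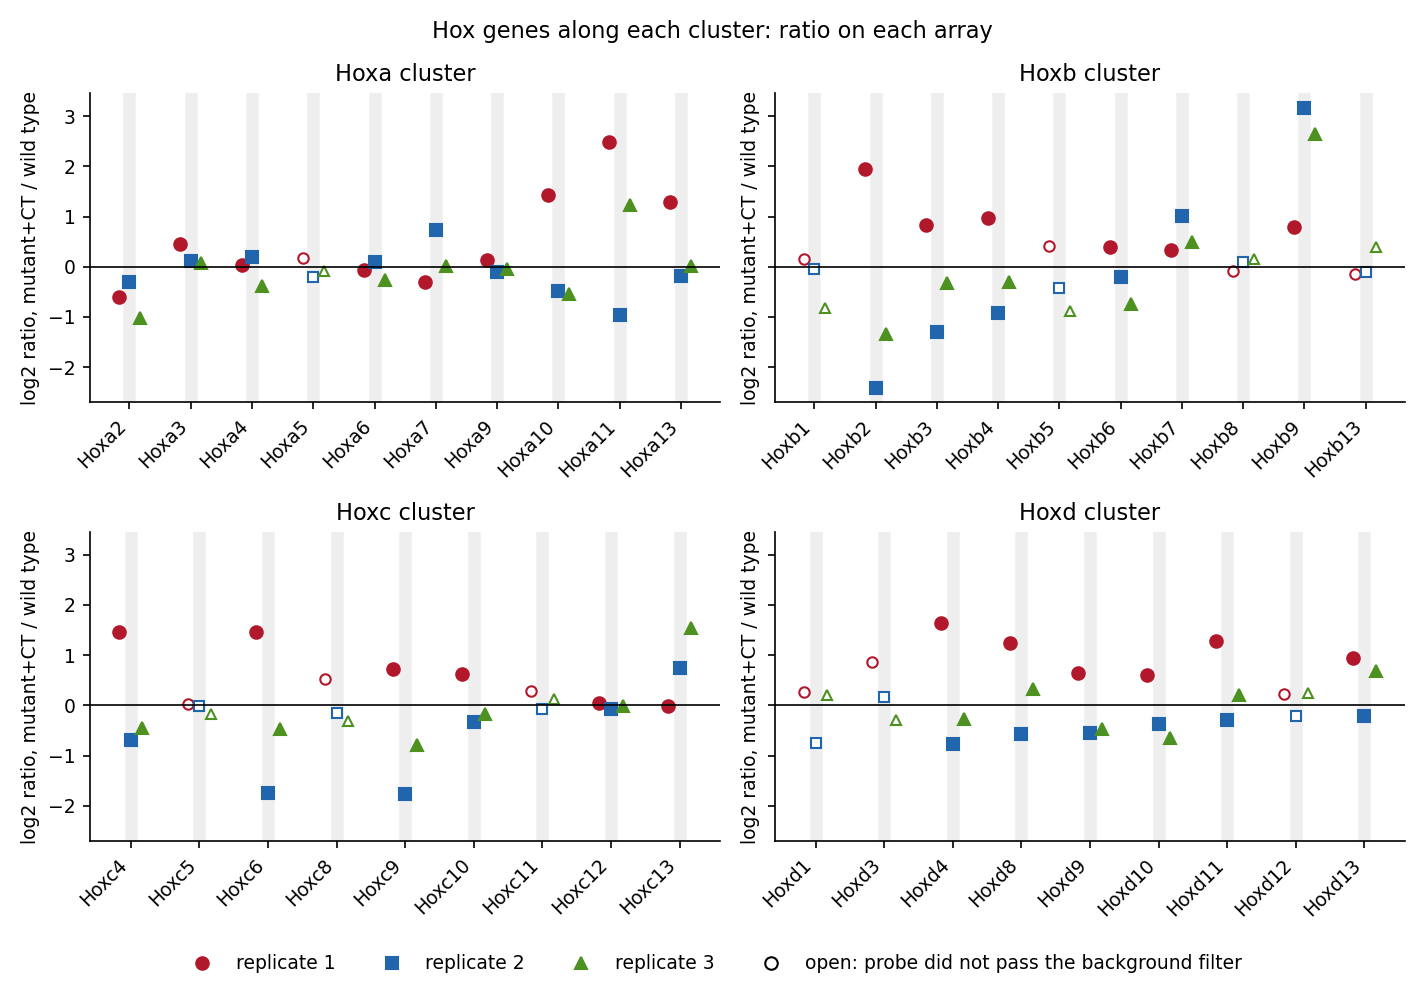
Log2 ratio, mutant+CT over wild type (y axis), for each Hox gene in order of paralog number along its cluster (x axis), with 1 symbol per array. Filled symbols are measured genes and open symbols are genes whose probe did not pass the background filter. Replicate 1 lies above 0 for 23 of the 27 measured genes, while replicates 2 and 3 lie mostly below it, and Hoxb9 stands above 0 on all 3 arrays.

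Hoxb9, a gene of thoracic identity in the trunk, had the highest mean ratio of any Hox gene. Its normalized intensity was 304, 1030 and 1090 in the mutant+CT RNAs of replicates 1 to 3, against 174, 114 and 175 in the wild-type RNAs. The groups did not overlap, and the mutant+CT RNA of replicate 1 was well under those of replicates 2 and 3. The log2 ratios were 0.80, 3.17 and 2.64, with a mean of 2.20 ± 1.24 (SD, n = 3), a 4.61-fold difference (limma adjusted p = 0.145). Over 12 alternatives, of processing or with an array left out, the mean ratio stayed between 1.72 and 2.91 and the adjusted p between 0.0356 and 0.385. With all 3 arrays kept, the mean ratio stayed between 1.89 and 2.89 and the limma adjusted p between 0.0933 and 0.268. The lowest adjusted p was reached without replicate 1, the array with the lowest Hoxb9 ratio. There Hoxb9 alone among the Hox genes passed, among 147 genes in all, against 0 with 3 arrays. In the fit over all probes without replicate 1, 0 Hox probes passed. The probe lies at chr11:96137748-96137807 (mm9).

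Hoxb7, which lies 2 paralog numbers from Hoxb9 in the same cluster, was also higher in mutant+CT on every array. It had intensities of 167, 280 and 204 in mutant+CT RNAs, against 132, 139 and 145 in wild-type RNAs. The groups did not overlap, but the difference missed the threshold (log2 ratios 0.34, 1.01 and 0.50; mean 0.61 ± 0.35, SD, n = 3; limma adjusted p = 0.321). For Hoxb7 as for Hoxb9, the share of all genes whose groups do not overlap was not counted here. The lack of overlap is therefore not read as setting these 2 genes apart from other genes. Hoxb8, which lies between them, was not measured, and its dim probe had ratios of -0.09, 0.09 and 0.15. Hoxa3, needed for the thymus and parathyroid, was the other gene of positive sign throughout, at 0.45, 0.11 and 0.07 (mean 0.21 ± 0.21, adjusted p = 0.733). On Agilent's processed signals its ratio on replicate 3 was -0.01, so its single sign depended on the processing. Its groups overlapped, with 245, 310 and 240 in mutant+CT and 179, 288 and 228 in wild type. The 3 genes higher on every array are 11.1% of the measured Hox genes, against 20.3% of all genes.

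Hoxa2, which patterns the hindbrain and pharyngeal arches, was the only measured Hox gene lower in mutant+CT on every array (3.7%, against 17.4% of all genes). Its intensities were 125, 89.5 and 91 in mutant+CT, against 190, 111 and 184 in wild type. Wild-type replicate 2, at 111, lay below mutant+CT replicate 1, at 125, so the groups overlapped, although mutant+CT was lower on each array. The log2 ratios were -0.60, -0.31 and -1.02 (mean -0.64 ± 0.36, SD, n = 3; limma adjusted p = 0.302). On Agilent's processed signals, to which no offset is added, they were -1.19, -1.16 and -2.41 (mean -1.59 ± 0.72, limma adjusted p = 0.114). By the main processing no Hox gene was at least 2-fold apart in 1 direction on every array, against 1.9% of all genes that were so higher and 0.991% so lower.

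The most frequent sign pattern was higher in mutant+CT on replicate 1 and lower on replicates 2 and 3. It was singled out after the values were seen, and it gets no test. It held for 14 of 27 Hox genes (51.9%) and for 8.95% of all genes: Hoxa9, Hoxa10, Hoxb2, Hoxb3, Hoxb4, Hoxb6, Hoxc4, Hoxc6, Hoxc9, Hoxc10, Hoxc12, Hoxd4, Hoxd9 and Hoxd10. For Hoxa9 and Hoxc12 no ratio was further than 0.14 from 0, so their signs carry little. The opposite, lower on replicate 1 and higher on replicates 2 and 3, held for Hoxa7 and Hoxc13 (7.41%, against 7.95% of all genes). A further 5 genes, Hoxa11, Hoxa13, Hoxd8, Hoxd11 and Hoxd13, were higher on replicates 1 and 3 and lower on replicate 2, 18.5% against 16.4% of all genes. Replicates 1 and 3 share a dye orientation and replicate 2 has the other, which is also how the signs of these 5 genes fall. The part of the dyes in the signs was not tested.

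**Figure D2:**
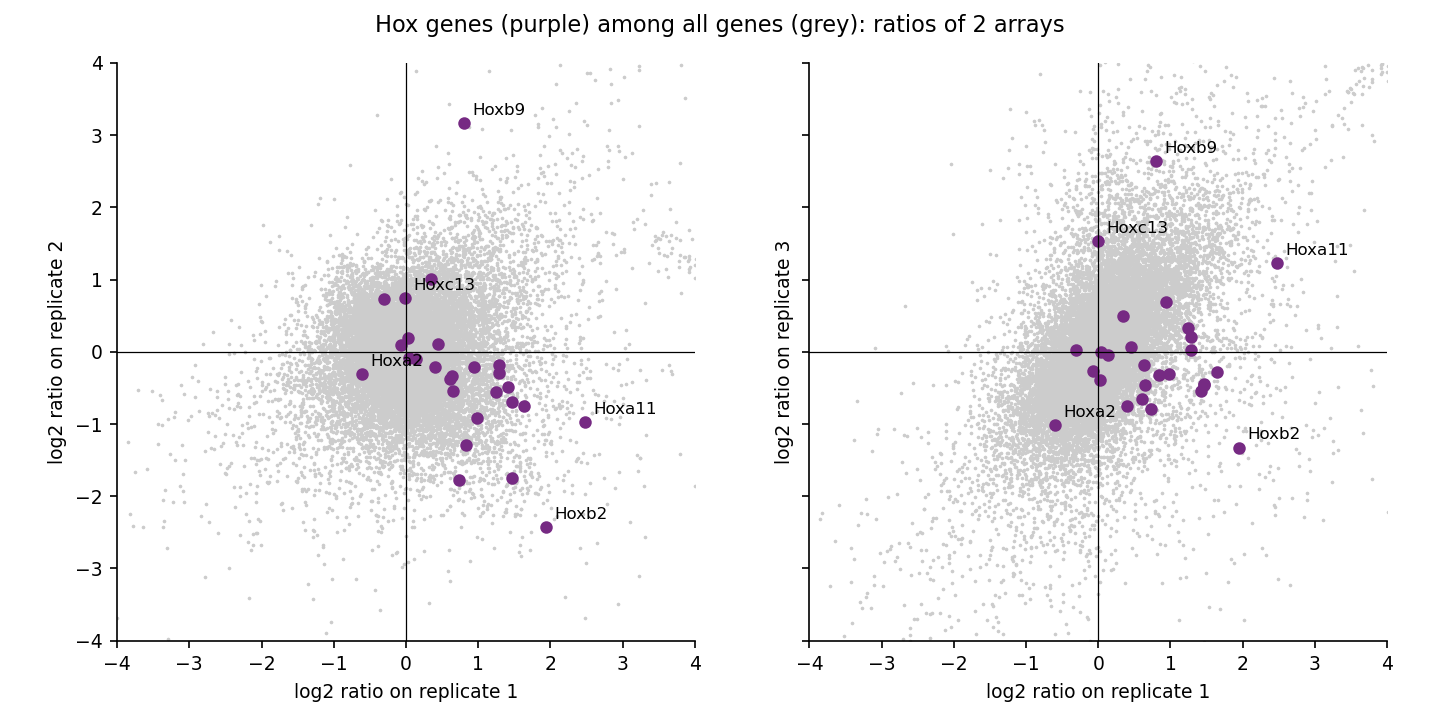
Log2 ratio on replicate 1 (x axis) against the ratio on replicate 2 (left) or replicate 3 (right), mutant+CT over wild type, for the 27 measured Hox genes (purple) and all measured genes (grey). The axes end at 4 on either side of 0, which leaves out 46 genes on the left and 114 on the right and no Hox gene. Most Hox genes lie to the right of 0 and below 0, with Hoxb9 far above.

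Across the 27 Hox genes the ratios of replicates 1 and 2 ran opposite ways (Pearson r = -0.47, Spearman rho = -0.70), those of replicates 2 and 3 ran together (0.73 and 0.55), and those of replicates 1 and 3 showed no relation (0.04 and -0.04). Without Hoxb9 the Pearson values were -0.64, 0.51 and 0.05 in the same order of pairs. Over all genes they were 0.18, 0.38 and 0.54. These describe genes within arrays, which share the array's RNAs and are not independent replicates.

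Hoxb2 changed sign with the widest span. This hindbrain gene had intensities of 897, 84.7 and 107 in mutant+CT, against 233, 454 and 269 in wild type. The mutant+CT RNAs thus held both the highest value and the 2 lowest. Its log2 ratios were 1.94, -2.42 and -1.33 (mean -0.60 ± 2.27, SD, n = 3; adjusted p = 0.812). On replicates 2 and 3 alone it was at least 2-fold lower, and Hoxb2 and Hoxb9 are the 2 Hox genes that are at least 2-fold apart in 1 direction without replicate 1.

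In the rest of the Hoxb cluster, Hoxb3 and Hoxb4 took the same course as Hoxb2. Hoxb4, known for its use in expanding blood stem cells, had 823, 567 and 392 in mutant+CT, against 417, 1070 and 483 in wild type. Its ratios were 0.98, -0.92 and -0.30 (mean -0.08 ± 0.97), and the groups overlapped widely. Hoxb3, read from the probe at chr11:96209002-96209061, had ratios of 0.84, -1.29 and -0.33, and its dim homeobox probe had 0.50, -0.34 and -0.40. The 2 probes agreed in sign on each array, and their means differed by 0.18. Hoxb6 had smaller ratios of 0.40, -0.21 and -0.75. The dim probes of Hoxb5 and Hoxb13 had 0.42, -0.42 and -0.88, and -0.14, -0.10 and 0.40. Hoxb1, a hindbrain gene with 10 spots of its probe on each array, was not measured by the rule. Its spots averaged 0.15 ± 0.09, -0.04 ± 0.10 and -0.82 ± 0.26 (SD between spots of 1 array, n = 10), and on replicate 3 the mutant+CT RNA was above background in 0 spots and the wild-type RNA in 10 of 10. Spots of an array are technical repeats, not replicates of a condition.

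In the Hoxc cluster 5 of 6 measured genes followed the leading pattern. Hoxc9, which gives motor neurons their thoracic identity, had 850, 199 and 217 in mutant+CT, against 512, 680 and 377 in wild type. Mutant+CT replicate 1 was the highest of the 6 RNAs and the other 2 mutant+CT RNAs the lowest. Its ratios were 0.73, -1.77 and -0.79 (mean -0.61 ± 1.26, SD, n = 3; adjusted p = 0.633). Hoxc6, a forelimb-level gene, was alike at 843, 149 and 239 in mutant+CT and 305, 501 and 329 in wild type, with ratios of 1.47, -1.74 and -0.46. Hoxc4, a gene of the neck region, had 1110, 217 and 420 in mutant+CT, against 403, 350 and 574 in wild type. Its ratios of 1.46, -0.69 and -0.45 averaged 0.11 ± 1.18, so the mean of Hoxc4 says little of any array. Hoxc10, a lumbar motor neuron gene, had smaller ratios of 0.63, -0.33 and -0.18, and Hoxc12 lay at 0.04, -0.08 and -0.01.

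Hoxc13, which is needed for hair and nails, went the other way. Its intensities were 151, 689 and 630 in mutant+CT, against 152, 411 and 217 in wild type. Replicate 1 was equally low in both RNAs, and on replicates 2 and 3 mutant+CT was the higher. The ratios were -0.01, 0.75 and 1.54 (mean 0.76 ± 0.77, SD, n = 3; limma adjusted p = 0.379). Hoxc13 and Hoxb9 were both lower in mutant+CT replicate 1 than in mutant+CT replicates 2 and 3, opposite to most of the Hox genes. Hoxb7 and Hoxa7 were so too, by less.

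**Figure D3:**
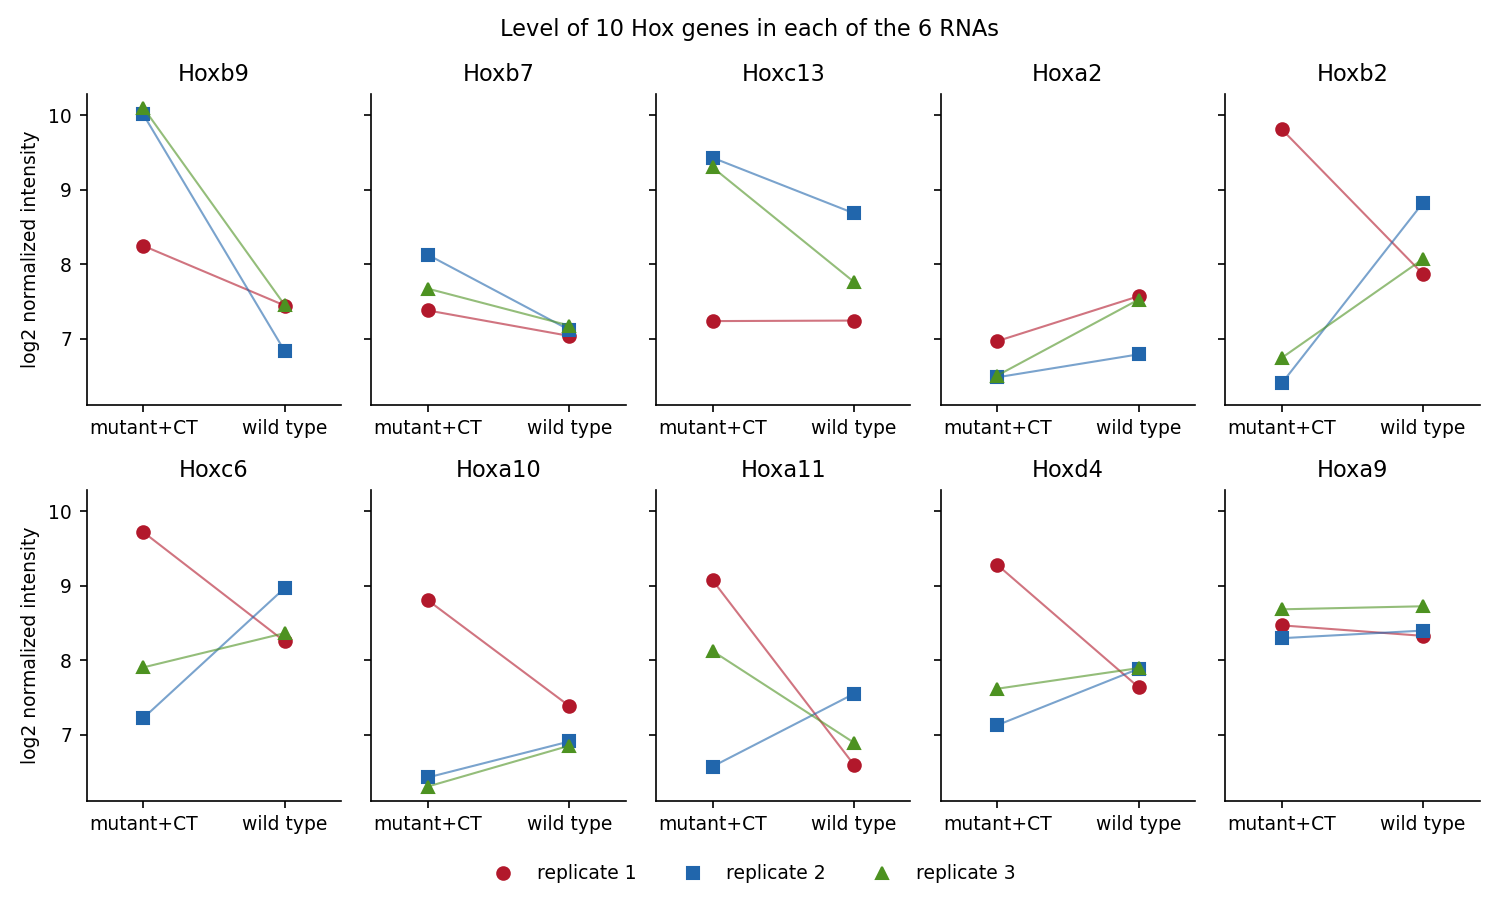
Log2 normalized intensity (y axis) of 10 Hox genes in the mutant+CT RNAs (left of each panel) and the wild-type RNAs (right), with lines joining the 2 RNAs of an array. In Hoxb2, Hoxc6, Hoxa10, Hoxa11 and Hoxd4 the mutant+CT RNA of replicate 1 is the highest of the 6, in Hoxb9, Hoxb7 and Hoxc13 it is the lowest of the 3 mutant+CT RNAs, and in Hoxa9 the lines are nearly flat. Levels of different genes come from different probes and are not comparable.

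The Hoxa cluster split by position. From Hoxa2 to Hoxa9 the 6 measured genes had ratios between -0.60 and 0.45 on replicate 1, while Hoxa10, Hoxa11 and Hoxa13 had 1.42, 2.48 and 1.28. This split was noticed in the values and was not tested. Hoxa9, a gene of blood progenitors and the trunk, barely differed on any array: its intensities were 354, 314 and 411 in mutant+CT, against 321, 337 and 423 in wild type. Its ratios were 0.14, -0.10 and -0.04 (mean 0.00 ± 0.13, SD, n = 3), and its other probe, 1430 bases away, had 0.47, -0.20 and -0.35. Hoxa4 (0.03, 0.19 and -0.39), Hoxa6 (-0.07, 0.10 and -0.27) and Hoxa7 (-0.30, 0.73 and 0.02) stayed within 2-fold on each array. Hoxa5 was not measured, and its dim probe had 0.18, -0.20 and -0.08.

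Hoxa11, which shapes the forearm and the uterus, had the largest ratio of any Hox gene on replicate 1. Its probe is printed 10 times on each array. Its intensities were 539, 95.4 and 279 in mutant+CT, against 96.9, 187 and 119 in wild type. Mutant+CT held the highest 2 values and the lowest. The ratios were 2.48, -0.97 and 1.23 (mean 0.91 ± 1.75, SD, n = 3; adjusted p = 0.586). Between the spots of an array the SD was 0.50, 0.19 and 0.05 over 10, 10 and 8 spots, and the spots ranged from 1.72 to 3.42 on replicate 1, from -1.14 to -0.49 on replicate 2 and from 1.17 to 1.32 on replicate 3. No spot of replicate 2 had the sign of the other arrays. The spread between spots is technical and says nothing of the condition. Hoxa10, which acts in the uterus and the lumbar spine, had 447, 86.2 and 79.2 in mutant+CT, against 167, 120 and 116 in wild type, with ratios of 1.42, -0.48 and -0.55. Hoxa13, of the digits and hindgut, had 1.28, -0.18 and 0.02 on its brighter probe and 0.85, -0.08 and 0.05 on the other, 124 bases away.

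Every measured gene of the Hoxd cluster was higher in mutant+CT on replicate 1 and lower on replicate 2. Over all genes, 16.4% had these signs with replicate 3 higher and 8.95% with replicate 3 lower. The mutant+CT RNA of replicate 1 was also the highest of the 6 RNAs for all 6 measured Hoxd genes, against 17.7% of all genes. Hoxd4, of the neck vertebrae, had 622, 140 and 196 in mutant+CT, against 199, 236 and 238 in wild type. The wild-type RNAs lay close together and the mutant+CT RNAs on either side of them, with ratios of 1.64, -0.76 and -0.28 (mean 0.20 ± 1.27, SD, n = 3). Hoxd13, of the digits, had the highest mean ratio in the cluster, 0.47 ± 0.61 (0.94, -0.22 and 0.68; adjusted p = 0.534), and Hoxd10 the lowest, -0.14 ± 0.66 (0.61, -0.38 and -0.65; adjusted p = 0.893). Hoxd8 had 1.24, -0.56 and 0.32, Hoxd9 0.65, -0.55 and -0.46, and Hoxd11 1.29, -0.29 and 0.21. The second probe of Hoxd11, 2878 bases away, had 0.35, 0.07 and 0.27, a mean that differed by 0.17. The dim probes of Hoxd1 and Hoxd3 had ratios of 0.27, -0.74 and 0.21, and of 0.86, 0.16 and -0.30.

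The clusters can be set side by side by their medians. On replicate 1 the median ratio was 0.14 over 9 Hoxa genes, 0.82 over 6 Hoxb genes, 0.68 over 6 Hoxc genes and 1.09 over 6 Hoxd genes. On replicate 2 the same medians were -0.10, -0.57, -0.51 and -0.47, and on replicate 3 they were -0.04, -0.31, -0.32 and -0.04. The median was thus above 0 on replicate 1 and below 0 on the other 2 in each cluster, closest to 0 on replicates 1 and 2 in Hoxa and on replicate 3 in Hoxa and Hoxd. Gene by gene, the leading pattern held for 2 of 9 in Hoxa, 4 of 6 in Hoxb, 5 of 6 in Hoxc and 3 of 6 in Hoxd. The medians of the genes' means were 0.13, -0.13, 0.01 and 0.27, none larger than the SD of the array medians (0.13, 0.74, 0.64 and 0.80). By paralog number the medians on replicates 1 to 3 were 0.91, -0.72 and -0.36 for numbers 1 to 4 (8 genes), 0.37, -0.06 and -0.13 for 5 to 8 (6 genes), and 0.73, -0.29 and -0.01 for 9 to 13 (13 genes). The leading pattern held for 5 of 8, 2 of 6 and 7 of 13 genes in these ranges. The medians did not change steadily along the number, and the middle range was closest to 0 on replicates 1 and 2. With all 42 probes, dim ones included, the medians were 0.48, -0.21 and -0.18 over all Hox probes. They were 0.67, -0.52 and -0.36, then 0.34, -0.16 and -0.18, then 0.63, -0.20 and 0.05 for the 3 paralog ranges. By cluster they were 0.32, -0.14 and -0.06 for Hoxa, 0.42, -0.21 and -0.33 for Hoxb, 0.53, -0.16 and -0.18 for Hoxc and 0.76, -0.33 and 0.21 for Hoxd. On replicate 3 the medians of Hoxd and of numbers 9 to 13 were therefore above 0 with the dim probes included.

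**Figure D4:**
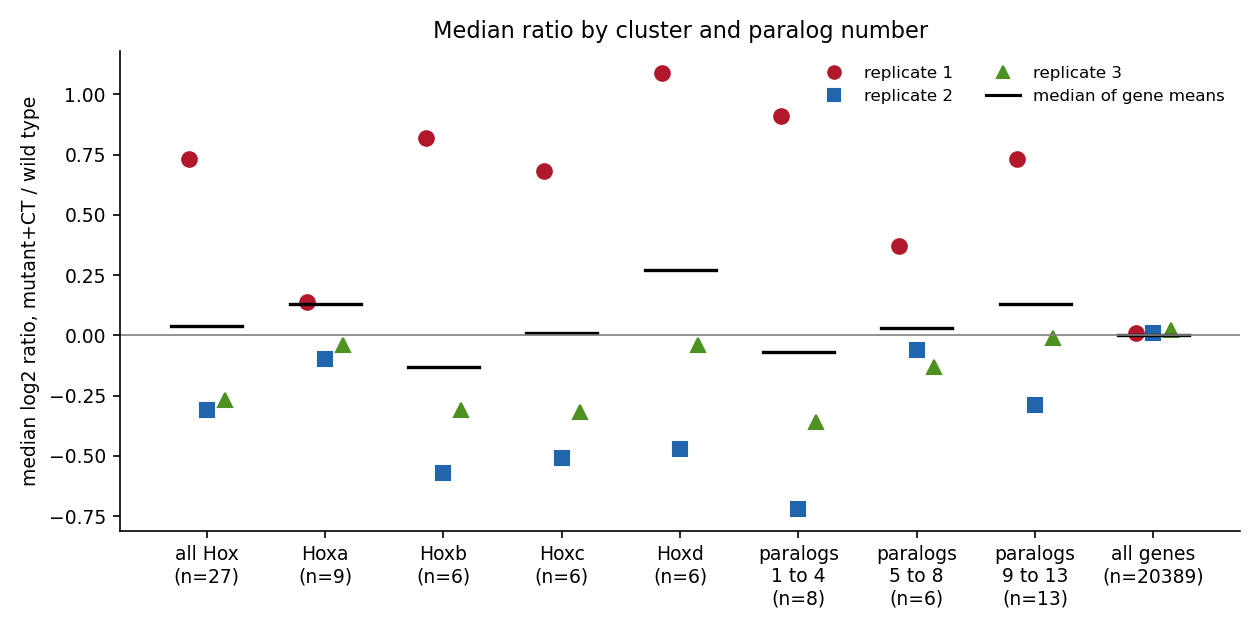
Median log2 ratio of mutant+CT over wild type (y axis) on each array for all measured Hox genes, each cluster, each range of paralog numbers and all genes (x axis, with the number of genes). Symbols are arrays and the black line is the median of the genes' means over the 3 arrays. Replicate 1 lies above 0 and replicates 2 and 3 below it in every Hox group, while the 3 arrays nearly coincide at 0 for all genes.

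The levels of many Hox genes were spread widely among the mutant+CT RNAs. The SD of the log2 level over the 3 mutant+CT RNAs was larger than that over the 3 wild-type RNAs for 21 of 27 Hox genes (77.8%) and for 55.8% of all genes. The median SD over Hox genes was 0.63 in mutant+CT and 0.30 in wild type, and over all genes it was 0.40 in mutant+CT and 0.36 in wild type. The mutant+CT RNA of replicate 1 had the highest level of the 6 RNAs for 14 Hox genes (51.9%, against 17.7% of all genes). Summed over the 27 genes, the normalized intensity was 9980, 5770 and 6170 in mutant+CT, against 5060, 6780 and 5580 in wild type, with mutant+CT replicate 1 the highest. Without Hoxb9 the sums were 9680, 4740 and 5070 in mutant+CT, against 4890, 6670 and 5410 in wild type, and mutant+CT replicate 2 was then below each wild-type RNA. At least 2-fold higher on replicate 1 were 9 Hox genes (33.3%, against 9.02% of all genes). At least 2-fold lower on replicate 2 were Hoxb2, Hoxb3, Hoxc6 and Hoxc9 (14.8%, against 8.02%), and on replicate 3 Hoxa2 and Hoxb2 (7.41%, against 10.1%). At least 2-fold higher were Hoxb7 and Hoxb9 on replicate 2 (7.41%, against 6.3%) and Hoxa11, Hoxb9 and Hoxc13 on replicate 3 (11.1%, against 13.8%).

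Markers of heart muscle, mesenchyme and limb mesoderm had their highest median ratios on replicate 1, as the Hox genes had. This was not particular to them. The visceral endoderm markers also had their highest median there (2.13, 1.13 and 0.94), as had each gene list below except the Polycomb and Trithorax one. The 6 heart muscle markers, all measured, had median ratios of 3.79, -1.15 and -1.22, and 4 of them followed the leading Hox pattern. Their summed intensity was 74400, 4810 and 4720 in mutant+CT, against 7770, 7380 and 6160 in wild type. Hand2, a heart and limb factor, had 4.39, -2.60 and -2.80, and Tnnt2, a sarcomere gene and the member with the smallest p, had 3.78, 1.18 and -0.26. The 5 mesenchyme markers had medians of 4.54, -2.16 and 0.09, with 2 of 5 in the leading pattern, and summed intensities of 224000, 2730 and 16100 in mutant+CT, against 11600, 16500 and 24200 in wild type. Col1a1, the main collagen of connective tissue, had 4.73, -3.23 and 0.41, and Col1a2 had 3.30, -1.86 and 0.34. The 6 markers of paraxial and limb mesoderm had medians of 1.28, 0.02 and 0.13, with 1 of 6 in the leading pattern. Tbx5 and Tbx4, which mark forelimb and hindlimb, had 2.24, 0.05 and 0.23, and 2.96, -0.17 and 2.37. Pitx1, also of the hindlimb, had 1.47, -1.37 and -4.02, and Tcf15, of the somites, had 0.50, 0.51 and 1.86. The summed intensity of these 6 markers was 20700, 3500 and 2690 in mutant+CT, against 7580, 7500 and 12900 in wild type. This sum mostly follows Pitx1, the brightest of them in every RNA but the mutant+CT RNA of replicate 3. Its log2 levels were 14.15, 11.34 and 9.557 in mutant+CT, against 12.68, 12.71 and 13.57 in wild type. The part of these cell types in the Hox ratios was not tested. Markers of other types kept 1 direction on all arrays: the 5 neural progenitor markers had medians of -4.31, -1.66 and -4.17, with 4 lower on every array, the 4 visceral endoderm markers 2.13, 1.13 and 0.94, with all 4 higher, and the 4 pluripotency markers 0.91, 1.35 and 2.46, with 3 higher. By smallest p these lists were led by Hes5 (-5.09, -2.25 and -4.42), Apoa1 (2.77, 1.66 and 1.92) and Zfp42 (1.04, 2.00 and 3.46). None of these marker genes passed the adjusted threshold of 0.05, and the smallest adjusted p among them was 0.0874, for Apoa1 in the endoderm list.

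Of the genes that act on or with the Hox clusters, 0 passed the adjusted threshold in any of the 7 lists described here. Counts of genes with 1 direction on every array are to be read against the 20.3% of all genes that were higher and the 17.4% that were lower. All 9 TALE cofactors were measured, with medians of 0.00, -0.96 and -2.20. Lower in mutant+CT on every array were 3 of them (33.3%), Meis3 and Pknox2 included, and none was higher on every array. Pknox2 had -1.07, -1.96 and -3.15 (mean -2.06 ± 1.05, SD, n = 3; adjusted p = 0.132). Meis1, Meis2 and Pbx3 followed the leading Hox pattern, and Meis2 had 2.01, -1.28 and -3.71. As with the Hox genes, the medians of the cofactors were below 0 on replicates 2 and 3, but that of replicate 1 was at 0.

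Among caudal and other ParaHox genes, 3 of 6 were measured. Cdx1, which activates Hox genes in the tailbud, had 1.24, 0.87 and 0.38 (mean 0.83 ± 0.43, adjusted p = 0.233) and was higher on every array. Cdx2 had 1.62, 0.50 and -0.84. Gsx2, of the forebrain, was lower on every array at -1.29, -0.52 and -1.94 (adjusted p = 0.182). Among 7 measured of 8 trunk axis and tailbud genes, 2 (28.6%) were lower on every array, Fgf8 and Gdf11, and 0 higher. T, the mesoderm factor Brachyury, had 2.22, -0.86 and -1.69, and Fgf8, a tailbud growth factor, had -0.05, -0.83 and -2.45 (adjusted p = 0.358). Of 6 hindbrain factors, Fgf3 and Epha7 (33.3%) were lower on every array and none higher. Fgf3 had -1.38, -1.93 and -1.26 (mean -1.52 ± 0.36, adjusted p = 0.0985), while Egr2, which acts directly on hindbrain Hox genes, had 0.20, -0.59 and 0.37.

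The retinoic acid list had 16 of 18 members measured, with 2 higher (12.5%) and 6 lower (37.5%) on every array and medians of -0.08, -0.20 and -0.68. The lower genes included Stra6, the cell-surface receptor for retinol uptake, at -3.08, -2.09 and -2.31 (mean -2.49 ± 0.52, SD, n = 3; limma adjusted p = 0.0735). Crabp1 and Crabp2, which bind retinoic acid in the cell, had -2.51, -1.14 and -1.06 (adjusted p = 0.149), and -3.38, -0.67 and -2.86 (adjusted p = 0.162). Higher on every array were Rara, a receptor, and Rdh10, which oxidises retinol. Rarb, a receptor whose gene is itself a retinoic acid target, had the leading Hox pattern, at 2.02, -1.23 and -2.80. Cyp26a1, which degrades retinoic acid, and Cyp26c1 were not measured.

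Of 18 Polycomb and Trithorax genes, 17 were measured, 3 were higher (17.6%) and 5 lower (29.4%) on every array, and 0 followed the leading Hox pattern. Bmi1, a subunit of Polycomb repressive complex 1, had -0.71, -1.02 and -1.61 (mean -1.11 ± 0.46, adjusted p = 0.159). Ezh1, Suz12 and Jarid2, of Polycomb repressive complex 2, were the genes higher on every array, and Suz12 had 0.33, 0.50 and 1.33 (adjusted p = 0.316). Members of that complex went both ways. Ezh2 was lower on every array at -0.38, -0.05 and -0.46, and Eed had -0.13, 0.43 and 0.54. The medians over the whole list were -0.10, -0.20 and 0.09, near those of all genes.

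A list of genes beside or near the clusters had medians closer to 0 than those of the Hox genes. The list is not the full set of neighbours. Cbx3, Tax1bp1, Atp5g2, Atf7, Hnrnpa1, Atp5g3 and Hnrnpa3, within 3 protein-coding genes of a cluster edge, are not in it. Jazf1 and Nfe2l1 are in it but lie further out. All 18 listed genes were measured, with medians of 0.25, -0.16 and 0.14, and 3 were higher (16.7%) and 2 lower (11.1%) on every array. The leading Hox pattern held for 4, Jazf1 and Nfe2l1 included. Evx1, a homeobox gene next to the Hoxa13 end of the Hoxa cluster, was among these 4 at 1.48, -0.59 and -0.58, and Skap2, at the other end, had 0.46, -0.25 and 1.5. Evx2, next to Hoxd13, had -0.49, 0.47 and -0.58, and Mtx2, at the other end of the Hoxd cluster, had 0.15, -0.32 and -0.47. Calcoco2, an autophagy receptor 2 protein-coding genes from the edge of the Hoxb cluster, had 1.22, 1.92 and 2.25 (mean 1.80 ± 0.52, SD, n = 3; adjusted p = 0.0957). Its nearer neighbour Ttll6 had 0.05, 0.95 and 0.75, and Hoxb13, the Hox gene at that end, was not measured.

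The sequence before the start of transcription was read for the members that RefSeq's table (GRCm38.p6) holds: 22 of the 38 genes with 24 promoters, out of 32851 promoters in all, each over the 250 bases before the start. The member promoters held a median of 12.5 CG dinucleotides, against 6 over all promoters. The retinoid receptor half-site AGGTCA, searched on both strands, was in 6 of 24 (25%) and in 14% of all promoters. The TATAAA motif, also on both strands, was in 4 of 24 (16.7%) and in 12.4% of all promoters. The Hoxa2, Hoxa9 and Hoxa11 promoters are shown because the genes took different courses: Hoxa2 was lower on every array, Hoxa9 barely differed, and Hoxa11 had the widest span in the cluster. They lie at chr6:52164832-52165081, chr6:52227371-52227620 and chr6:52245811-52246060 (GRCm38.p6), are printed 5′ to 3′ on the minus strand, and have CG in capitals.
Hoxa2 promoter: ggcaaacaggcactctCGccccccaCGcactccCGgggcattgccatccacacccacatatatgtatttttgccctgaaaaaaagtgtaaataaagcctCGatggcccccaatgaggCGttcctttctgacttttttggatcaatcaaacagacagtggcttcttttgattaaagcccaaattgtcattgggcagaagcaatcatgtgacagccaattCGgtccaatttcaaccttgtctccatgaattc
Hoxa9 promoter: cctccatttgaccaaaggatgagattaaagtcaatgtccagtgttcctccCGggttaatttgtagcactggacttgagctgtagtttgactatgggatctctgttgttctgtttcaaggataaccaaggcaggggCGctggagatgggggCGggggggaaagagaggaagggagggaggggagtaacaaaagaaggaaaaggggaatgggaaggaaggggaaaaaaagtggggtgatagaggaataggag
Hoxa11 promoter: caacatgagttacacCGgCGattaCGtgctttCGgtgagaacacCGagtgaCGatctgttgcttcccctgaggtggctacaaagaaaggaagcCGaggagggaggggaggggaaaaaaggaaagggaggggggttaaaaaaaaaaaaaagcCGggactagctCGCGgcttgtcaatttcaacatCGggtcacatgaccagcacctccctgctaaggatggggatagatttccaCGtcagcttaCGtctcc
They hold 6, 3 and 13 CG dinucleotides, and as many or more were found in 50.4%, 71% and 31.5% of all promoters. None of these 3 windows holds AGGTCA or TATAAA. These counts describe the letters in the windows and say nothing of what binds there.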

How the data were processed

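The authors deposited scanner files of 3 two-colour arrays, with intensity values per spot (mean signal and median local background, green and red); per the file headers, they were written by Agilent Feature Extraction 10.7.3.1. These files also give a processed intensity and, as deposited, the log10 of red over green, which served only to find directions. A deposited value table holds the authors' log2 ratios, made with limma per the submitters' processing notes; its column medians are -0.02, 0.01 and -0.02, and its slopes on the present ratios are 1.03, 0.966 and 0.971. Its exact steps are unknown.

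Ratios were computed in R 4.3.3 with limma 3.58.1: normexp background correction with an offset of 50, loess within each array, control spots at weight 0, and spots with outlier flags left out. The offset pulls ratios of dim probes towards 0, which applies to many Hox probes. Levels are normalized intensities of each channel after loess and Aquantile. The 1 brightest measured probe stood for a gene, and 26317 of 39429 probes were kept. Ratios were tested against 0, two-sided, with Benjamini-Hochberg adjustment over 20389 genes. Names come from RefSeq accessions (GRCm38.p6) or the files, and probe positions from the files (mm9). The arrays pair the RNAs; per the file headers, all were on 1 slide and in 1 scan.

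The members and gene lists were chosen with earlier results of these data known. By rule, values per array were given for the members with the highest and lowest mean ratio and the highest intensity in each cluster, for members beside the background filter, for Dido1 and for the gene with the smallest p in each list; the other genes with such values were chosen after their values were seen. The number of arrays limits the precision. Some genes and a probe sequence are not reported here.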

Additional observations from a re-analysis of the deposited data

How the results depend on the processing

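Results were recomputed with no background subtraction, on processed signals, with median centring, without the background filter, with that filter in both groups, with the mean of a gene's probes, from the deposited value table, with a dye term, with a trended and robust prior, and without each array in turn. The pattern of higher on replicate 1 and lower on replicates 2 and 3, whose alternatives were added after it was seen, held for 13 to 15 Hox genes with 3 arrays, and for 19 of 38 without the filter. The dye term and the trended and robust prior leave the ratio of each array as it is. They could therefore not change any count of signs or folds per array, and do not bear on this pattern. Over all genes the count at adjusted p under 0.05 was 0 in the analysis above, 286 on processed signals, 12 with the filter in both groups, 176 with the trended and robust prior, and 0 to 147 when an array was left out. Without replicate 1, 1 Hox gene passed (Hoxb9, 2.91, limma adjusted p = 0.0356), among 147 genes in all, and no other alternative called a Hox gene. In the fit over all probes, 0 Hox probes passed without replicate 1. The Hox genes 2-fold or more apart on every array numbered 2 on processed signals (Hoxb9 and Hoxa2) and 0 to 2 when an array was left out. Those of 1 sign on every array numbered 4 in the analysis above and 3 on processed signals. When an array was left out they numbered 5 to 20, with fewer arrays to satisfy. The Hox median ranged from -0.12 to 0.31 when an array was left out, that of Hoxa from -0.08 to 0.21, Hoxb from -0.54 to 0.32, Hoxc from -0.41 to 0.36, Hoxd from -0.31 to 0.71, and those of paralog numbers 1 to 4, 5 to 8 and 9 to 13 from -0.59 to 0.28, -0.10 to 0.15 and -0.07 to 0.44. The causes were not tested.

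With all 3 arrays kept, the signs that turned were of mean ratios near 0. Leaving out an array also turned larger ones, Hoxb2 (-0.60), Hoxd11 (0.40), Hoxa13 (0.38) and Hoxd8 (0.34) included. On processed signals Hoxa4 had 0.00, Hoxa10 -0.43 and Hoxc10 -0.24. With median centring Hoxa9 had 0.04 and Hoxc12 0.01, and in the deposited table Hoxc12 had 0.03. With a dye term Hoxa4 had 0.01, Hoxa10 -0.02, Hoxc4 -0.09, Hoxc10 -0.05 and Hoxd4 -0.04. When an array was left out, the range crossed 0 for 19 genes: Hoxa4 (-0.18 to 0.11), Hoxa6 (-0.17 to 0.01), Hoxa7 (-0.14 to 0.37), Hoxa9 (-0.07 to 0.05), Hoxa10 (-0.51 to 0.47), Hoxa13 (-0.08 to 0.65), Hoxb2 (-1.88 to 0.31), Hoxb3 (-0.81 to 0.26), Hoxb4 (-0.61 to 0.34), Hoxb6 (-0.48 to 0.09), Hoxc4 (-0.57 to 0.51), Hoxc6 (-1.10 to 0.50), Hoxc10 (-0.26 to 0.22), Hoxc12 (-0.04 to 0.02), Hoxd4 (-0.52 to 0.68), Hoxd8 (-0.12 to 0.78), Hoxd9 (-0.50 to 0.09), Hoxd10 (-0.52 to 0.11) and Hoxd11 (-0.04 to 0.75). The fit on 1 ratio per array is itself the paired analysis, since each array pairs 1 mutant+CT with 1 wild-type RNA. Slide and scan could not be fitted, since all 3 arrays share them. Probes near background limit the Hox ratios: with 50 added to each signal they understate differences.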
